A study of Mus musculus with 3 samples.

Results

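The 8 genes described here, Iigp1, Igtp, Irgm1, Irgm2, Gbp2, Gbp3, Gbp5 and Gbp7, encode interferon-induced GTPases and were taken by symbol, all 8 of them, from the 29994 genes counted in single droplets of mouse ventricle. They were chosen by their levels and ratios in these same counts, with earlier results in view, so these values are descriptions and none of them is tested. The tissue was ventricle of C57B6 mice, kept frozen, and each of the 3 libraries was made from 3 pooled hearts on the 10x Genomics platform. The TAC+ART hearts had been under transverse aortic constriction (TAC), a narrowing of the aorta that loads the left ventricle, and the mice had been given artesunate, an antimalarial derived from artemisinin. The TAC hearts had the same constriction with vehicle, and the Sham hearts had the sham operation with vehicle. The sources used here do not give age, sex, dose or time after surgery, and do not say if intact cells or nuclei went into the droplets, which are called cells below. With 1 library per group there is no replicate error, and differences between pools of hearts, preparations and treatments cannot be told apart.

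Interferon-induced GTPases are part of the defence that a cell mounts against microbes inside it. Interferons bind receptors at the cell surface, kinases of the JAK family pass the signal on, and transcription factors of the STAT and IRF families switch on target genes. The GTPases form a family of immunity-related GTPases (IRG) and a family of guanylate-binding proteins (Gbp). In mice, Iigp1 is an effector IRG protein that coats the vacuoles of parasites, and Igtp, Irgm1 and Irgm2 are regulatory IRG proteins that keep the effectors inactive on the cell's own membranes. Gbp2, Gbp3, Gbp5 and Gbp7 bind to vacuoles and microbes, and Gbp5 and Gbp2 also take part in inflammasome activation, the step that sets off inflammatory caspases. In the heart these genes are best known from infection and inflammation, and endothelial cells are among the cells that respond to interferon-gamma.

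The genes lie in a few clusters of the genome. In the GENCODE M21 annotation of GRCm38, the build of the submitters' notes (mm10), Gbp5 (142493978-142522344), Gbp7 (142530342-142550149), Gbp3 (142560026-142573209) and Gbp2 (142620602-142638008) follow each other on the plus strand of chromosome 3. Irgm1 lies on the minus strand of chromosome 11 (48861968-48871683). Igtp (58199556-58207591) and Irgm2 (58199618-58222782) lie on its plus strand and overlap in this annotation, with 99.2% of the length of Igtp inside Irgm2. The RefSeq promoter window of Irgm2 printed below (58214797-58214976) lies past the end of Igtp, so the overlap depends on the annotation. Which annotation was used for counting is not given, so reads may have been split between these genes and the counts of both are uncertain.

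Promoter windows were available for 7 of the 8 genes in a table of RefSeq promoters (GRCm38.p6, 250 bases before to 50 bases after each start site). They are shown because most of the 8 genes had their lowest level in the same library, and because interferon signalling reaches its targets through short motifs. The 180 bases before the start site are printed on the strand of the gene, with matches in capitals to the gamma-activated site (GAS, TTCNNNGAA) and to an interferon-stimulated response element core (ISRE, GAAANNGAAA or its reverse complement TTTCNNTTTC), both searched on both strands. Matches to the 2 motifs did not overlap in these windows.
Igtp: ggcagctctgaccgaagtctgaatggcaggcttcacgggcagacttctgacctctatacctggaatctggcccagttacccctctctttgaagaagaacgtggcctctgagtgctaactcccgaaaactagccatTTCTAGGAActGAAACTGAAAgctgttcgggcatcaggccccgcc
Irgm2: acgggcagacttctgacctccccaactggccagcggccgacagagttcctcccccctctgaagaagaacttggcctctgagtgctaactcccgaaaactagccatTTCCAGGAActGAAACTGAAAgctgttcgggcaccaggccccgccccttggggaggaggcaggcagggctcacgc
Irgm1: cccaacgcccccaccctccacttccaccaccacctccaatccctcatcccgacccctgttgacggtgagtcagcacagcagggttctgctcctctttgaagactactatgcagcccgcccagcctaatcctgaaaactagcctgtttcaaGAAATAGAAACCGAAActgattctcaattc
Gbp2: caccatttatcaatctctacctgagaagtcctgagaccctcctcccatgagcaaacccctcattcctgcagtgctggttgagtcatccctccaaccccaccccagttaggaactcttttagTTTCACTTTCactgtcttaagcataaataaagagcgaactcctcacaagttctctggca
Gbp3: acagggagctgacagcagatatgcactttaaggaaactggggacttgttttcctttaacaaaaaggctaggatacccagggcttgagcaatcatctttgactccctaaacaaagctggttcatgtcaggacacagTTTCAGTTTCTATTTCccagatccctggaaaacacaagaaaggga
Gbp5: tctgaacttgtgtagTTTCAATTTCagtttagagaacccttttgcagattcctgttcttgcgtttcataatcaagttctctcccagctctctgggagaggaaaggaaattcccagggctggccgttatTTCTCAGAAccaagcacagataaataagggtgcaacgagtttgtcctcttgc
Gbp7: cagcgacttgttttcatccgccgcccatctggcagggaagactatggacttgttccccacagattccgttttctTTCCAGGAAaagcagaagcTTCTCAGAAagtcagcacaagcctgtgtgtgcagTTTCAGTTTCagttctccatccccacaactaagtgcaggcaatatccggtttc
These windows are chr11:58199376-58199555 (plus strand) for Igtp, chr11:58214797-58214976 (plus) for Irgm2, chr11:48871421-48871600 (minus) for Irgm1, chr3:142620483-142620662 (plus) for Gbp2, chr3:142559864-142560043 (plus) for Gbp3, chr3:142496754-142496933 (plus) for Gbp5 and chr3:142530156-142530335 (plus) for Gbp7.

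An ISRE match was present in all 7 genes that had a window, and in 1131 of all 32851 promoter windows (3.44%). A GAS match was present in 4 of the 7, Igtp, Irgm2, Gbp5 and Gbp7, and in 2726 of all windows (8.30%), and both together in 149 of all windows (0.454%). In Igtp the GAS match lay at -45 to -37 from the start site and the ISRE match at -34 to -25, and in Irgm2 they lay at -75 to -67 and -64 to -55, with the same spacing. The windows of Igtp and Irgm2 shared identical runs of 38 and 29 bases around these matches, which met at a difference inside the GAS match, and a run of 61 bases closer to the start site, from -11 in Igtp and -41 in Irgm2, while the other pairs of genes shared runs of 7 to 13 bases. Gbp3 had a second annotated start site whose window held no match. Gbp5 had a further GAS match at -245 to -237, outside the printed bases. A match describes the letters of the window and shows no binding.

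There were 6856 barcodes with 33364667 UMIs (unique molecular identifiers, the counted molecules) in TAC+ART, 7413 with 37658150 UMIs in TAC and 3752 with 17710689 UMIs in Sham. Median depth per barcode was 4524.5 UMIs in TAC+ART, 4811 in TAC and 4310 in Sham. After filters and removal of likely doublets, 6480, 6972 and 3638 cells remained in TAC+ART, TAC and Sham. Between 20 and 27 barcode sequences were shared by each pair of libraries. Few barcodes exceeded 10000 UMIs (9 in TAC+ART, 3 in TAC and 9 in Sham), although 161 to 405 per library lay 1000 UMIs or less under this value, so few very deep cells were among the barcodes. Cells were put into classes by panels of marker genes, and 7 classes with at least 50 cells in every library are compared. Endothelial-like cells numbered 1907 in TAC+ART, 2055 in TAC and 1039 in Sham, and their 9 endothelial markers, all detected in each library, summed to 9434, 9350 and 10132 CPM (UMIs per 1000000 UMIs of the class).

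The 8 GTPases together were highest in endothelial-like cells, the lining of blood vessels, in each of the 3 libraries. Their summed level there was 756 CPM in TAC+ART (95% interval 737 to 776), 353 CPM in TAC (341 to 366) and 687 CPM in Sham (662 to 714), from 5762, 3160 and 2694 UMIs. All intervals are for counting error only and say nothing of differences between hearts. Endothelial-like cells held 55.0% of all UMIs of the 8 genes in TAC+ART, 47.6% in TAC and 52.9% in Sham. The sum in these cells stood 1.99 times above the second class in TAC+ART, 1.29 times in TAC and 2.32 times in Sham. The second class was endocardial-like in TAC+ART and Sham and lymphatic endothelial-like in TAC, where 57 of its 377 UMIs came from 1 cell. Endocardial-like cells stood at 50.2%, 53.8% and 43.2% of the endothelial-like level in TAC+ART, TAC and Sham. The lead over the second class was thus narrowest in the TAC library, and that over endocardial-like cells differed less between TAC+ART and TAC.

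Below the endothelial-like cells came the other vessel-lining and heart-lining classes and the macrophages. Endocardial-like cells, which line the chambers, had 379 CPM of the 8 genes in TAC+ART, 190.1 CPM in TAC and 297 CPM in Sham. Lymphatic endothelial-like cells had 299.6, 273 and 212 CPM in TAC+ART, TAC and Sham. Macrophage-like cells had 244 CPM in TAC+ART, 131 CPM in TAC and 240.5 CPM in Sham. The order of these 3 classes changed between libraries, and in Sham their neighbouring intervals overlapped. Fibroblast-like cells had 179 CPM in TAC+ART, 114 CPM in TAC and 185 CPM in Sham. Cardiomyocyte-like cells had 118, 113 and 142 CPM, and pericyte-like cells, which wrap small vessels, 133, 82.2 and 92.0 CPM, in TAC+ART, TAC and Sham. Intervals of cardiomyocyte-like cells overlapped those of pericyte-like cells in TAC+ART and those of fibroblast-like cells in TAC.

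**Figure D1:**
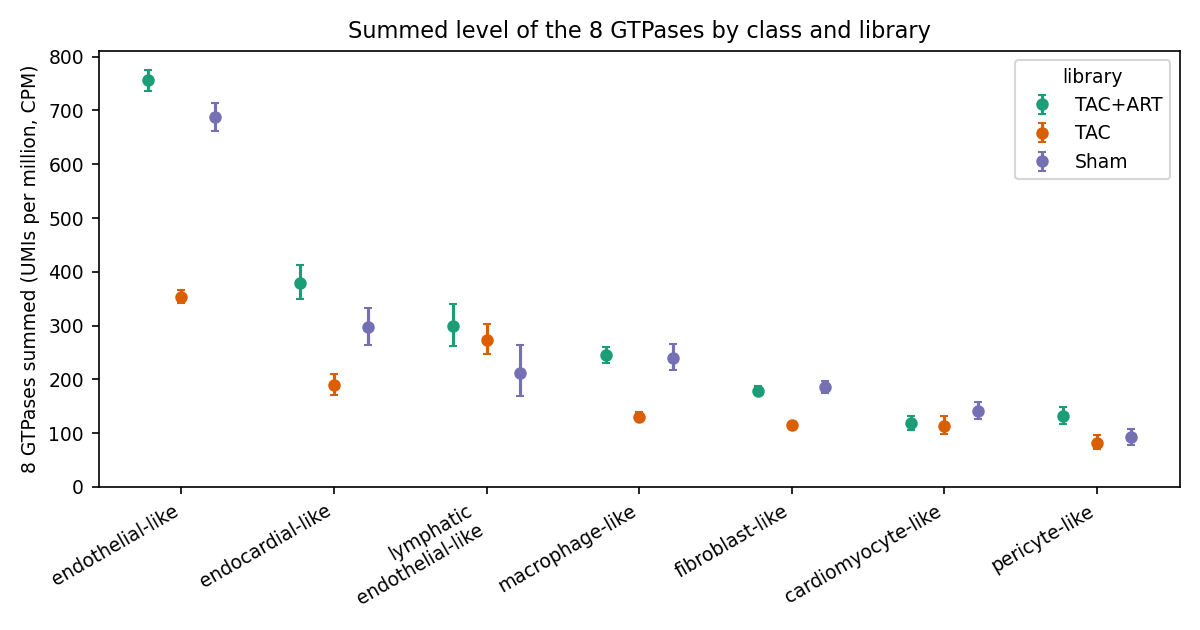
Summed level of the 8 GTPases (vertical axis, CPM) in 7 classes (horizontal axis) in the TAC+ART, TAC and Sham libraries, with bars for 95% intervals of counting error. Endothelial-like cells lie highest in each library, and the TAC point of that class, 353 CPM, lies below the TAC+ART point at 756 CPM and the Sham point at 687 CPM.

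Gene by gene, endothelial-like cells formed the highest class for Iigp1, Irgm1, Gbp3, Gbp5 and Gbp7 in all 3 libraries. The exceptions were Igtp, which was highest in endocardial-like cells in TAC and Sham, and Irgm2 and Gbp2, which were highest in lymphatic endothelial-like cells in TAC. In each of these 4 cases the interval of endothelial-like cells overlapped. For Irgm1, endothelial-like cells overlapped endocardial-like cells in TAC+ART and macrophage-like cells in TAC and Sham. For Igtp and Irgm2 in TAC+ART they overlapped endocardial-like cells, and for Gbp3 and Gbp7 in TAC lymphatic endothelial-like cells.

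In endothelial-like cells the largest part of the summed difference lay in Iigp1. Iigp1, the effector IRG, which lies on chromosome 18, stood at 305 CPM in TAC+ART (2323 UMIs), 104 CPM in TAC (929 UMIs) and 273 CPM in Sham (1072 UMIs). Its log2 ratio was -1.40 (-1.52 to -1.27) in TAC over Sham and 1.55 (1.44 to 1.66) in TAC+ART over TAC. The level in TAC was thus 0.380 times that in Sham, and the level in TAC+ART was 2.93 times that in TAC. TAC+ART and Sham lay close together, with a log2 ratio of 0.16 (0.05 to 0.26). The ratios of TAC over Sham and of TAC+ART over TAC share the TAC library, so a value that is low in that library gives a negative ratio in one and a positive ratio in the other.

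The regulatory IRG genes showed smaller differences. Irgm1, which acts on lysosomes and other membranes of the cell, had 37.4 CPM in TAC+ART, 27.6 CPM in TAC and 44.6 CPM in Sham, with log2 ratios of -0.69 (-0.98 to -0.40) in TAC over Sham and 0.44 (0.19 to 0.69) in TAC+ART over TAC. Irgm2, found mainly at the Golgi, had 66.9, 39.4 and 59.2 CPM in TAC+ART, TAC and Sham, with ratios of -0.59 (-0.83 to -0.34) and 0.76 (0.57 to 0.97). Igtp, also called Irgm3, had 15.6 CPM in TAC+ART (119 UMIs), 8.39 CPM in TAC (75 UMIs) and 6.63 CPM in Sham (26 UMIs). Igtp was the only one of the 8 genes that was not lower in TAC than in Sham, with a ratio of 0.32 whose interval included 0 (-0.32 to 1.04). Its ratio was 0.89 (0.47 to 1.33) for TAC+ART over TAC and 1.21 (0.61 to 1.91) for TAC+ART over Sham, where the other 7 genes lay within 1.5-fold. Reads of Igtp and Irgm2 may be shared, and Irgm2 did not show this pattern.

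All 4 Gbp genes were lowest in TAC. Gbp2 had 56.6 CPM in TAC+ART, 29.2 CPM in TAC and 50.2 CPM in Sham, with log2 ratios of -0.78 (-1.06 to -0.51) in TAC over Sham and 0.95 (0.73 to 1.18) in TAC+ART over TAC. Gbp3 had 57.3, 23.8 and 50.8 CPM in TAC+ART, TAC and Sham, with -1.09 (-1.38 to -0.81) and 1.27 (1.03 to 1.51), the largest ratios of the Gbp genes here. Gbp5, the inflammasome-linked member, had 84.8, 44.5 and 77.0 CPM, with -0.79 (-1.01 to -0.57) and 0.93 (0.75 to 1.11). Gbp7 had 133, 76.6 and 125 CPM, with -0.71 (-0.88 to -0.54) and 0.79 (0.65 to 0.93). Each Gbp gene thus had a TAC+ART level near its Sham level, with the TAC level clear of both intervals. Summed by family, the 4 IRG genes had 425 CPM in TAC+ART, 179 CPM in TAC and 384 CPM in Sham, and the 4 Gbp genes 331, 174 and 303 CPM.

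**Figure D2:**
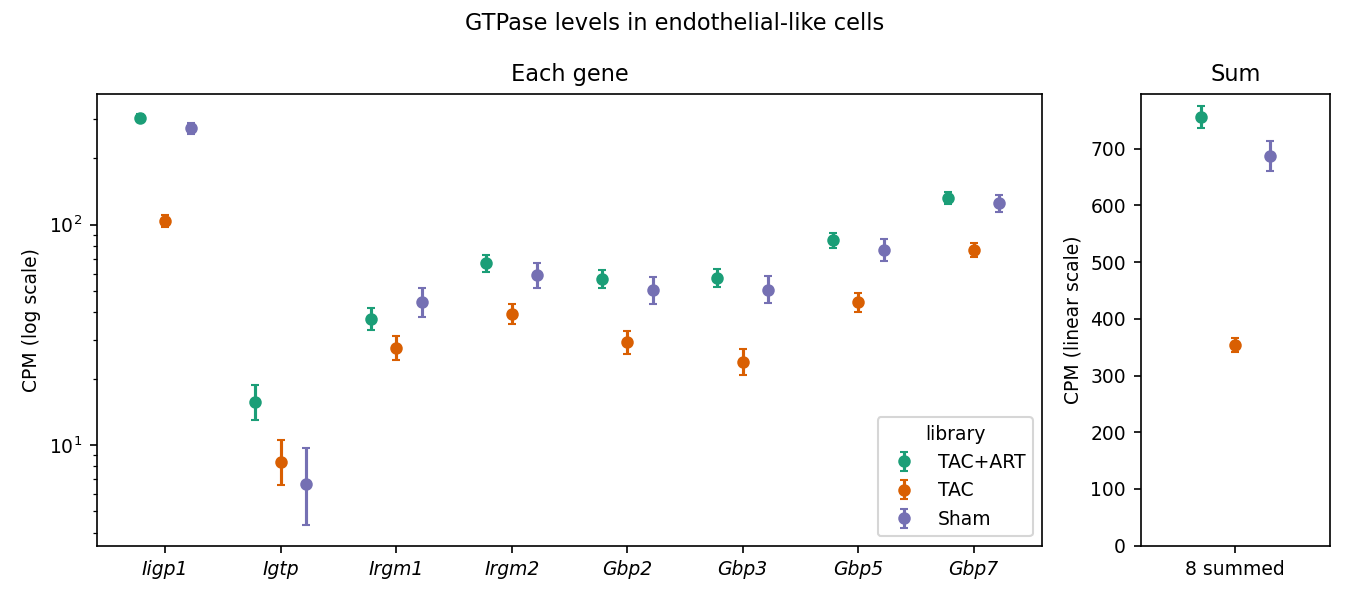
Level of each GTPase (left, CPM on a log scale) and of the 8 summed (right, CPM on a linear scale) in endothelial-like cells of the TAC+ART, TAC and Sham libraries, with 95% intervals of counting error. The TAC point is the lowest for 7 genes and for the sum, and Igtp, at 8.39 CPM in TAC and 6.63 CPM in Sham, is the exception.

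In endothelial-like cells, 7 of the 8 genes were at least 1.5-fold lower in TAC than in Sham and 0 were higher by that much, where 9.20% of all genes with at least 50 UMIs in the pair of libraries were lower and 11.5% were higher. Between TAC+ART and TAC, 7 of 8 were at least 1.5-fold higher in TAC+ART and 0 lower, where 6.65% of all genes were higher and 5.47% lower. Between TAC+ART and Sham, 1 of 8 (Igtp) was higher in TAC+ART and 0 lower, where the shares of all genes were 6.82% and 4.17%. Irgm1 was the gene that missed 1.5-fold for TAC+ART over TAC. The median log2 ratio of the 8 genes was -0.75 in TAC over Sham and 0.91 in TAC+ART over TAC, against medians of -0.05 and -0.01 over all genes. The members were chosen with such ratios known, so these counts are read as descriptions only.

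Other values moved with the libraries in the same cells, and their part in the GTPase levels was not tested. The 8 immediate early genes, which respond to handling of tissue, summed to 163 CPM in TAC+ART, 408 CPM in TAC and 343 CPM in Sham. Median depth was 3679, 4014 and 3516 UMIs per endothelial-like cell, and the mitochondrial share 1.02%, 1.10% and 0.967%, in TAC+ART, TAC and Sham. Markers of macrophages, all 10 detected, summed to 364, 390 and 177 CPM, those of fibroblasts, all 10 detected, to 3261, 2720 and 1103 CPM, and those of cardiomyocytes, all 10 detected, to 7170, 7164 and 5697 CPM. None of these 3 marker sums was lowest in TAC. Markers of pericytes, all 8 detected, were lowest there, at 261 CPM in TAC+ART, 211 CPM in TAC and 240 CPM in Sham, and so by a smaller step were endocardial markers, all 8 detected, at 592, 585 and 627 CPM. The 12 markers of T and NK cells, the main makers of interferon-gamma, summed to 54.8 CPM in TAC+ART, 28.5 CPM in TAC and 78.1 CPM in Sham. Cd247 alone gave 47.8, 17.9 and 75.0 CPM of these sums in TAC+ART, TAC and Sham. Next by UMIs were Skap1, with 28, 36 and 4 UMIs, and Themis, with 5, 24 and 3 UMIs, both highest in TAC by CPM. Of the remaining markers, all with few UMIs, Cd3d and Trac were highest in TAC+ART, Ncr1 in Sham and the others in TAC. The defining marker Cd3d had 3 UMIs in TAC+ART and 0 UMIs in TAC and Sham, and Cd3e had 3, 6 and 1 UMIs. T or NK-like cells themselves numbered 29, 45 and 14 and were too few to compare.

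Vessel types of the endothelium differed in how high the genes stood. Venous endothelial-like cells had 947 CPM of the 8 genes in TAC+ART, 332 CPM in TAC and 616 CPM in Sham. Capillary endothelial-like cells had 716 CPM in TAC+ART, 367 CPM in TAC and 743 CPM in Sham, and arterial endothelial-like cells 478, 232 and 440 CPM, again lowest in TAC. Iigp1 in venous endothelial-like cells had 454 CPM in TAC+ART (482 UMIs), 86.9 CPM in TAC (135 UMIs) and 263 CPM in Sham (174 UMIs). Its TAC+ART level there was 5.21 times the TAC level (log2 2.38, 2.11 to 2.67), and it lay above Sham as well (log2 0.79, 0.53 to 1.05). In capillary endothelial-like cells Iigp1 had 288, 117 and 294 CPM in TAC+ART, TAC and Sham, so that TAC+ART and Sham did not separate (log2 -0.03, -0.19 to 0.13). The difference between venous and capillary cells in these ratios was not tested.

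The same held when endothelial-like cells were split by unsupervised clusters, an alternative chosen after seeing the data. The 8 genes summed to 744 CPM in TAC+ART, 389 CPM in TAC and 799 CPM in Sham within cluster 0, the largest. Cluster 2 had 916, 309 and 649 CPM and cluster 12 had 557, 295 and 457 CPM in TAC+ART, TAC and Sham. TAC was lowest in each of the 3 clusters, and the sign of TAC+ART over Sham differed between them. Single genes reversed in the small cluster 12, where Igtp had a log2 ratio of -0.27 for TAC+ART over TAC and Irgm2 of 0.05 for TAC over Sham.

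In single endothelial-like cells thinned to 1000 UMIs each, at least 1 UMI of the 8 genes was found in 41.2% of cells in TAC+ART (39.0 to 43.5), 23.9% in TAC (22.1 to 25.8) and 40.7% in Sham (37.7 to 43.8). Without thinning the shares were 75.9%, 58.4% and 68.8%, and 1 TAC+ART cell was too shallow to thin. Iigp1 was found in 17.6% of thinned cells in TAC+ART, 7.74% in TAC and 15.4% in Sham, and in 38.6%, 21.8% and 33.9% without thinning. The lower level in TAC thus came with fewer cells in which the genes were detected. At least 2 of the 8 genes were found together in 12.3%, 4.57% and 11.9% of thinned cells of TAC+ART, TAC and Sham.

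The UMIs were concentrated in part of the cells in every library. The 10% of endothelial-like cells with most UMIs of the 8 genes held 44.9% of these UMIs in TAC+ART, 48.2% in TAC and 47.1% in Sham. Of thinned cells with Iigp1, another of the 8 genes was found in 47.2% in TAC+ART (41.7 to 52.7), 33.3% in TAC (26.1 to 41.2) and 53.1% in Sham (45.1 to 61.0). Of thinned cells without Iigp1, it was found in 28.7%, 17.6% and 29.9%. In each library the other genes were thus found more often beside Iigp1 than without it, in cells brought to the same number of UMIs.

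**Figure D3:**
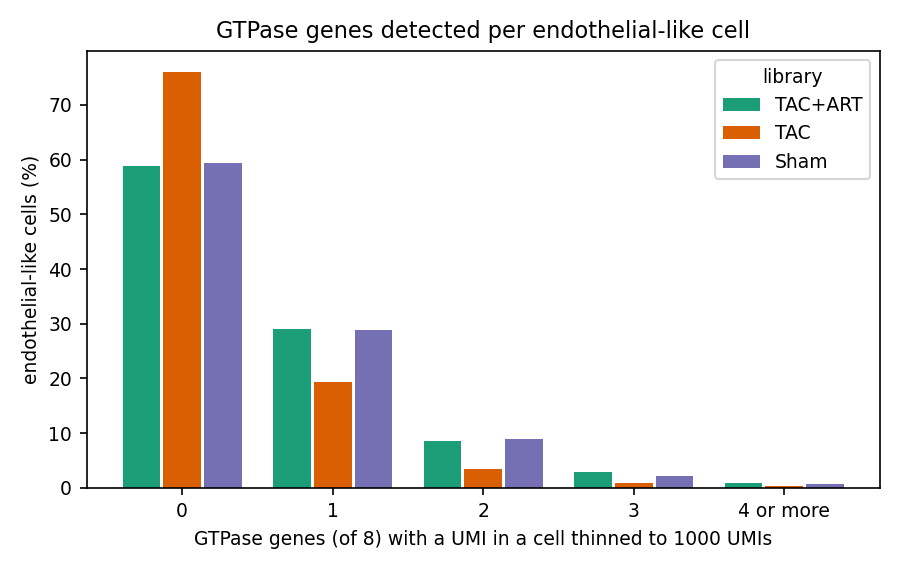
Share of endothelial-like cells (vertical axis, percent) by how many of the 8 GTPase genes had a UMI after thinning to 1000 UMIs (horizontal axis), in TAC+ART, TAC and Sham. Cells with none of the genes make up 58.8% in TAC+ART, 76.1% in TAC and 59.3% in Sham, and the bars for 1, 2 and 3 genes are lowest in TAC.

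Endocardial-like cells (255 in TAC+ART, 338 in TAC and 184 in Sham) showed the same order of libraries. Iigp1 had 103 CPM in TAC+ART, 31.9 CPM in TAC and 83.9 CPM in Sham there, with log2 ratios of -1.39 (-1.89 to -0.90) in TAC over Sham and 1.68 (1.26 to 2.14) in TAC+ART over TAC. Gbp3 had ratios of -1.19 (-2.05 to -0.35) and 1.09 (0.33 to 1.89). Irgm2 differed little between TAC and Sham (0.09, -0.52 to 0.76) and was higher in TAC+ART than in TAC (0.72, 0.26 to 1.20). Gbp2 had 34.6 CPM in TAC+ART, 16.0 CPM in TAC and 26.2 CPM in Sham, Gbp5 had 36.6, 22.2 and 36.7 CPM, and Gbp7 had 78.7, 46.4 and 57.7 CPM. Irgm1 had 27.8, 16.0 and 22.0 CPM, and Igtp had 18, 18 and 8 UMIs, in TAC+ART, TAC and Sham. Of 7 genes with at least 50 UMIs, 4 were at least 1.5-fold lower in TAC than in Sham and 0 higher, where 11.2% of all genes were lower and 10.5% higher. All 7 were at least 1.5-fold higher in TAC+ART than in TAC, where 9.46% of all genes were higher and 6.07% lower. The share of thinned cells with a UMI of the 8 genes, 25.1%, 20.1% and 20.7% in TAC+ART, TAC and Sham, separated the libraries less than the CPM did, and no order is read from it.

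In macrophage-like cells (983 in TAC+ART, 1313 in TAC and 328 in Sham) Iigp1 and Gbp7 carried the difference. Iigp1 had 73.5 CPM in TAC+ART, 19.2 CPM in TAC and 64.3 CPM in Sham, with log2 ratios of -1.74 (-2.13 to -1.35) in TAC over Sham and 1.93 (1.63 to 2.24) in TAC+ART over TAC. Gbp7 had 63.0, 25.7 and 57.2 CPM in TAC+ART, TAC and Sham, with -1.16 (-1.54 to -0.77) and 1.29 (1.02 to 1.58). The regulatory IRG genes did not follow in the second comparison. Irgm1 had 22.5 CPM in TAC+ART, 21.4 CPM in TAC and 38.3 CPM in Sham, and Irgm2 had 38.3, 31.8 and 38.3 CPM. Their ratios for TAC+ART over TAC were 0.08 (-0.31 to 0.45) and 0.27 (-0.03 to 0.57). Gbp3 had 13.8, 7.79 and 16.9 CPM, while Gbp5 had 16.0, 10.2 and 9.75 CPM, in TAC+ART, TAC and Sham. Igtp, with 8.53, 7.64 and 5.20 CPM, and Gbp2, with 8.75, 7.02 and 10.4 CPM, had ratios whose intervals included 0.

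Of the 8 genes in macrophage-like cells, 5 were at least 1.5-fold lower in TAC than in Sham and 0 higher, where 13.2% of all genes were lower and 12.1% higher. In TAC+ART, 4 were higher than in TAC and 0 lower, where 6.67% of all genes were higher and 6.53% lower. The class was made of different clusters in the libraries, with cluster 7 holding 72.2% of these cells in TAC and 3.66% in TAC+ART, and cluster 11 holding 44.9% in TAC+ART and 42.4% in Sham. Within cluster 4, which was common to all, the 8 genes summed to 215 CPM in TAC+ART, 100.2 CPM in TAC and 180 CPM in Sham, so the order of the libraries was the same there.

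In fibroblast-like cells (1861 in TAC+ART, 1727 in TAC and 1090 in Sham), the main makers of matrix, Gbp3 and Gbp5 had the largest ratios for TAC over Sham. Gbp3 had 14.5 CPM in TAC+ART, 7.63 CPM in TAC and 27.3 CPM in Sham, with log2 ratios of -1.84 (-2.25 to -1.44) in TAC over Sham and 0.92 (0.52 to 1.34) in TAC+ART over TAC. Gbp5 had 15.5, 8.97 and 23.0 CPM in TAC+ART, TAC and Sham, with -1.36 (-1.76 to -0.96) and 0.79 (0.41 to 1.17). For these genes the TAC+ART level lay between those of TAC and Sham. Iigp1 had 45.1, 21.5 and 37.0 CPM, with -0.79 (-1.07 to -0.50) and 1.07 (0.84 to 1.31). Gbp2 had 16.4, 10.1 and 16.6 CPM, and Gbp7 33.9, 26.1 and 34.1 CPM, in TAC+ART, TAC and Sham. Igtp stood apart again, with 6.42, 4.10 and 2.06 CPM and a ratio of 0.95 (0.02 to 2.10) for TAC over Sham. Irgm1, with 15.1, 13.7 and 18.2 CPM, and Irgm2, with 31.7, 22.3 and 26.7 CPM, lay within 1.5-fold in each ratio.

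At 1.5-fold, 4 of the 8 genes in fibroblast-like cells were lower in TAC than in Sham and 1 (Igtp) was higher, where 1757 of 13473 genes were lower and 2285 higher. Of the 8, 2 (Gbp3 and Gbp5) were at least 2-fold lower in TAC than in Sham and 0 higher, where 5.19% of all genes were lower and 7.86% higher by that much. In TAC+ART, 5 were higher than in TAC at 1.5-fold and 0 lower, where 8.36% of all genes were higher and 7.33% lower. The largest cluster of this class differed between libraries, cluster 5 with 47.7% in TAC+ART, cluster 1 with 71.4% in TAC and cluster 6, which no marker panel named, with 69.2% in Sham. In TAC+ART, clusters 1 and 6 held 18.9% and 11.4%. Within cluster 9 alone the sum had 170 CPM in TAC+ART, 98.8 CPM in TAC and 134 CPM in Sham, and within cluster 5 alone 191, 174 and 276 CPM. In cluster 5 the log2 ratio of the sum for TAC+ART over TAC was 0.12, against 0.64 (0.54 to 0.75) in the whole class. Gbp5, Gbp7 and Igtp had lower levels in TAC+ART than in TAC there. Cluster 5 held 109 of these cells in TAC with 119 UMIs of the 8 genes, so its single-gene values rest on few UMIs. The difference between TAC+ART and TAC in fibroblast-like cells therefore depends on which cells are set side by side.

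Cardiomyocyte-like cells (464 in TAC+ART, 316 in TAC and 336 in Sham) shared the pattern only in part. Iigp1 was lowest in TAC and the 4 Gbp genes summed were not, and 1 cell weighed on the values. Iigp1 had 54.9 CPM in TAC+ART (141 UMIs), 42.4 CPM in TAC (67 UMIs) and 102 CPM in Sham (227 UMIs), but 57 of the 227 Sham UMIs came from 1 cell. Without the cell richest in these genes in each library, Iigp1 had 54.3, 37.8 and 76.9 CPM in TAC+ART, TAC and Sham. The log2 ratio of the summed 8 genes for TAC over Sham was -0.32 (-0.59 to -0.05), and -0.04 without those cells. For TAC+ART over TAC it was 0.06 (-0.21 to 0.33). The 4 Gbp genes went the other way from those of endothelial-like cells, with 33.9 CPM in TAC+ART, 39.9 CPM in TAC, 19.4 CPM in Sham and a log2 ratio of 1.04 (0.46 to 1.64) for TAC over Sham, where Gbp3 had 15, 11 and 2 UMIs. Markers of other cells moved with them in the same cells, and their part in these levels was not tested. Endothelial markers, all 9 detected, summed to 836 CPM in TAC+ART, 961 CPM in TAC and 463 CPM in Sham, fibroblast markers, all 10 detected, to 2662, 2876 and 829 CPM, and macrophage markers, all 10 detected, to 431, 568 and 197 CPM. Irgm2 had 39, 22 and 16 UMIs and Gbp7 36, 28 and 23 UMIs in TAC+ART, TAC and Sham. The other genes were thin, with 21, 18 and 16 UMIs of Irgm1, 20, 12 and 12 of Gbp2, 16, 12 and 6 of Gbp5 and 15, 9 and 12 of Igtp. Only 2 of the 8 genes reached 50 UMIs for TAC over Sham, with 1 lower and 1 higher by 1.5-fold in TAC, where 18.3% of all genes were lower and 27.5% higher. Cluster 10 held 56.5% of these cells in TAC+ART, 35.8% in TAC and 78.3% in Sham, and had 75.9, 68.3 and 130.2 CPM of the 8 genes.

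Pericyte-like cells (453 in TAC+ART, 355 in TAC and 380 in Sham) differed mainly in TAC+ART. Their 8 genes gave a log2 ratio of -0.16 (-0.50 to 0.18) in TAC over Sham and 0.69 (0.39 to 0.99) in TAC+ART over TAC. Iigp1 had 63, 24 and 21 UMIs, or 29.8, 13.5 and 12.6 CPM, in TAC+ART, TAC and Sham. Igtp had 7 UMIs in TAC+ART and 0 in TAC and Sham, which makes it at least 1.96-fold higher in TAC+ART than in TAC and at least 1.84-fold higher than in Sham, counting the 0 as 3 UMIs per library. Gbp7 had 33.1, 38.9 and 40.9 CPM and was not higher in TAC+ART. Irgm2 had 38, 7 and 15 UMIs, Gbp2 had 22, 5 and 6 UMIs and Gbp5 had 44, 19 and 15 UMIs in TAC+ART, TAC and Sham. Irgm1, with 23, 13 and 11 UMIs, and Gbp3, with 13, 9 and 17 UMIs, had intervals that included 0 in both ratios. Of 3 genes with at least 50 UMIs in TAC+ART and TAC together, 2 were at least 1.5-fold higher in TAC+ART and 0 lower, where 5.31% of all genes were higher and 5.14% lower.

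Lymphatic endothelial-like cells (158 in TAC+ART, 256 in TAC and 77 in Sham) had a different order of libraries. The sum of the 8 genes was not lower in TAC than in Sham, with a log2 ratio of 0.36 (0.01 to 0.73) from 377 and 79 UMIs. Gene by gene, 3 ratios lay above 0 and 5 below 0 (median -0.05). Irgm2 had 17.9 CPM in TAC+ART, 41.3 CPM in TAC and 16.1 CPM in Sham, with ratios of 1.25 (0.15 to 2.86) in TAC over Sham and -1.17 (-2.17 to -0.35) in TAC+ART over TAC. Iigp1 had 108, 79.7 and 53.7 CPM in TAC+ART, TAC and Sham. Gbp2 was highest in TAC as well, with 19.1, 31.9 and 13.4 CPM, while Gbp7 hardly differed, with 62.5, 60.1 and 59.1 CPM. Gbp3 had 24.2, 15.2 and 21.5 CPM and Gbp5 had 34.4, 23.9 and 26.9 CPM in TAC+ART, TAC and Sham. Irgm1 had 20, 22 and 6 UMIs and Igtp had 6, 7 and 2 UMIs. In TAC, 57 of the 377 UMIs came from 1 cell. Of 3 genes with at least 50 UMIs, 1 was higher and 0 lower in TAC than in Sham, where 14.8% of all genes were higher and 10.2% lower. Of 5 such genes, 2 were lower and 0 higher in TAC+ART than in TAC, where 7.87% of all genes were lower and 6.26% higher.

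**Figure D4:**
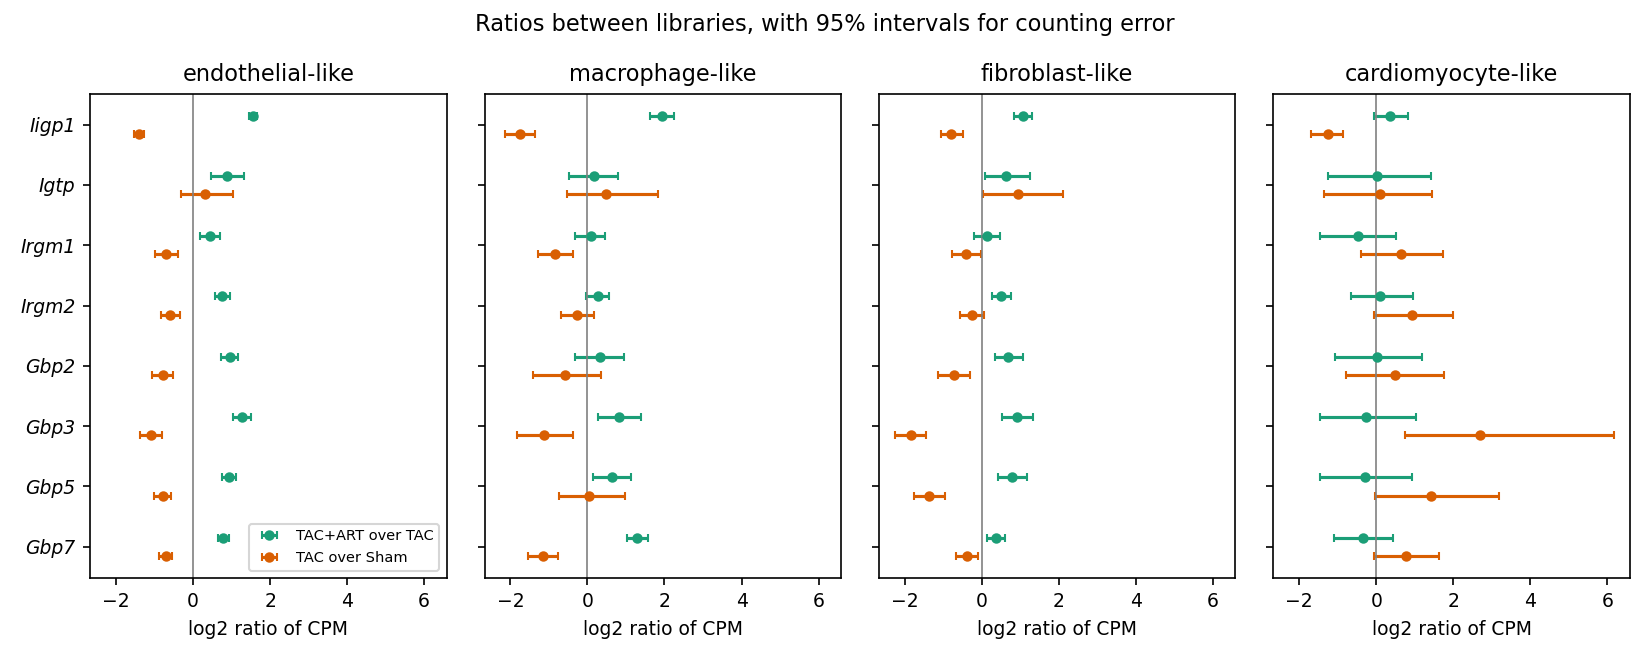
Log2 ratios of CPM (horizontal axis) for each GTPase in endothelial-, macrophage-, fibroblast- and cardiomyocyte-like cells, for TAC+ART over TAC and TAC over Sham, with 95% intervals of counting error. In endothelial-like cells the points of 7 genes lie on opposite sides of 0, from -1.40 to 1.55 for Iigp1, and the 2 ratios share the TAC library.

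Free RNA in droplets can put UMIs of endothelial genes into other cells. In fibroblast-like cells the endothelial markers stood at 3.46% of their endothelial-like level in TAC+ART, 3.20% in TAC and 2.08% in Sham, and Gbp4, another GTPase high in endothelial-like cells, at 4.87%, 3.24% and 1.21%. The 8 GTPases stood at 23.6%, 32.4% and 26.9% of their endothelial-like level, above both measures. The gate placed cells by these same endothelial markers, which can lower the share of the markers in other classes. The part of free RNA in the GTPase levels was not tested. In macrophage-like cells the 8 genes stood at 32.3%, 37.0% and 35% and Gbp4 at 5.71%, 6.63% and 10.8% in TAC+ART, TAC and Sham. In cardiomyocyte-like cells the distance was smaller, with 15.6%, 32.1% and 20.6% for the 8 genes summed and 12.1%, 16.7% and 7.50% for Gbp4. Endothelial markers stood at 8.86%, 10.3% and 4.57% there, and Iigp1 at 18.0%, 40.8% and 37.4%. In Sham, Gbp3 (1.78%) and Gbp5 (3.51%) lay below both measures. In TAC+ART, Gbp3 (10.2%), Gbp5 (7.36%) and Gbp7 (10.6%) lay below Gbp4. The other genes had values above Gbp4 in these libraries, and all 8 did in TAC, but most intervals overlapped. In TAC, Gbp5 had 17.1% (8.74 to 30.1) from 12 UMIs and Gbp4 16.7% (9.07 to 28.3) from 14 UMIs. Of the single genes, only Igtp in each library and Iigp1 in TAC and Sham had intervals clear of that of Gbp4. In pericyte-like cells the 8 genes stood at 17.5%, 23.3% and 13.4% and Gbp4 at 6.87%, 8.50% and 3.89%. As shares of thinned cells with a UMI, the 8 genes were found in 16.1%, 8.80% and 16.2% among fibroblast-like cells of TAC+ART, TAC and Sham, and among cardiomyocyte-like cells in 12.8%, 13.6% and 9.94%. In pericyte-like cells, the lowest class, they were found in 11.5%, 5.92% and 8.16%, at median depths of 4310, 4779 and 4045 UMIs.

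The rest of the interferon pathway was followed with 7 gene lists in endothelial-like cells, starting with the closest relatives of the 8 genes. Of 21 other GTPases of the same families in the files, 13 had at least 50 UMIs for TAC over Sham, and 6 of them were at least 1.5-fold lower and 0 higher (median log2 ratio -0.48). For TAC+ART over TAC, 6 of 14 were higher and 0 lower (median 0.41). Gbp4 had 103 CPM in TAC+ART, 53.0 CPM in TAC and 108 CPM in Sham, with ratios of -1.03 and 0.96. The IRG gene Tgtp1 had 7.22, 2.46 and 6.63 CPM, and Gm4951 had 42.1, 16.1 and 24.2 CPM, in TAC+ART, TAC and Sham. Ifi47, another IRG gene, had 7.61, 6.60 and 5.36 CPM and was not lowest in TAC, like Igtp. Irgq, an IRG-like gene that is not known as an interferon target, had 9.71, 13.2 and 10.2 CPM, and was highest in TAC. Of the relatives with enough UMIs, 11 of 13 were lower in TAC than in Sham and 13 of 14 higher in TAC+ART than in TAC, by any amount.

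The receptors and kinases upstream had another order of libraries. In these cells 11.5% of all genes were higher and 9.20% lower for TAC over Sham, and 6.65% were higher and 5.47% lower for TAC+ART over TAC, and list counts of 1 or 2 genes are given as values from which nothing is read. Of 7 ligands, receptors and kinases with enough UMIs, 2 were higher in TAC than in Sham and 0 lower (median 0.26), and set against TAC, 1 was lower in TAC+ART and 0 higher (median -0.20). Ifngr2, the signalling chain of the interferon-gamma receptor, had 32.3 CPM in TAC+ART, 62.1 CPM in TAC and 30.9 CPM in Sham, with log2 ratios of 1.0 and -0.94. Ifngr1, its ligand-binding chain, had 169, 192 and 124 CPM, with 0.63 and -0.19. The receptor was thus highest in the library in which 7 of the GTPases were lowest. Ifng, Ifnb1, Ifna4 and Ifnl3, which encode interferons, were not among the genes counted, so their levels could not be described.

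Transcription factors differed less. Irf1, an interferon-induced factor, had 56.6 CPM in TAC+ART, 84.3 CPM in TAC and 66.8 CPM in Sham, with log2 ratios of 0.33 in TAC over Sham and -0.58 in TAC+ART over TAC, so its level was highest in TAC. Of 12 STAT and IRF factors, 1 (Stat2, at 129, 98.9 and 171 CPM in TAC+ART, TAC and Sham) was lower in TAC than in Sham and 0 higher (median -0.10). Set against TAC, 2 of 13 were higher in TAC+ART and 0 lower (median 0.13), Batf2 and Nlrc5, the activator of MHC class I genes, with 78.5, 45.6 and 60.7 CPM. Of 8 feedback inhibitors, 1 (Ptpn6, a phosphatase of blood cells) stood higher in TAC than in Sham and 0 lower (median 0.06), and 0 passed 1.5-fold for TAC+ART over TAC (median -0.16).

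Among other targets the direction depended on the gene. Of 17 other interferon-gamma targets, 1 was lower and 1 higher in TAC than in Sham (median 0.15). Cd274, which encodes the checkpoint ligand PD-L1, had 53.0 CPM in TAC+ART, 30.6 CPM in TAC and 63.3 CPM in Sham, and was lowest in TAC like 7 of the 8 GTPases. Cd74, the chaperone of MHC class II, had 90.9, 67.8 and 35.2 CPM in TAC+ART, TAC and Sham. For TAC+ART over TAC 5 of 19 were higher and 0 lower (median 0.30), among them Psmb9, an immunoproteasome subunit, with 47.1 CPM in TAC+ART and 23.9 CPM in TAC. Of 16 type I interferon targets, 4 were lower and 1 higher in TAC than in Sham (median -0.30), and set against TAC, 5 were higher in TAC+ART and 0 lower (median 0.44). The lowest ratios for TAC over Sham were those of Ifit3b, at -1.11, and Cmpk2, at -0.87, which also had the highest for TAC+ART over TAC, 1.08 and 0.83. The gene that was higher in TAC was Ifi27l2a, with 79.5, 85.3 and 29.8 CPM in TAC+ART, TAC and Sham. Of 17 partners in inflammasomes and autophagy, 4 were higher and 0 lower in TAC than in Sham (median 0.02), and set against TAC, 1 was lower in TAC+ART and 0 higher (median -0.15). That gene was Casp4, the sensor caspase of the noncanonical inflammasome, with 42.4, 80.5 and 42.3 CPM in TAC+ART, TAC and Sham.

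**Figure D5:**
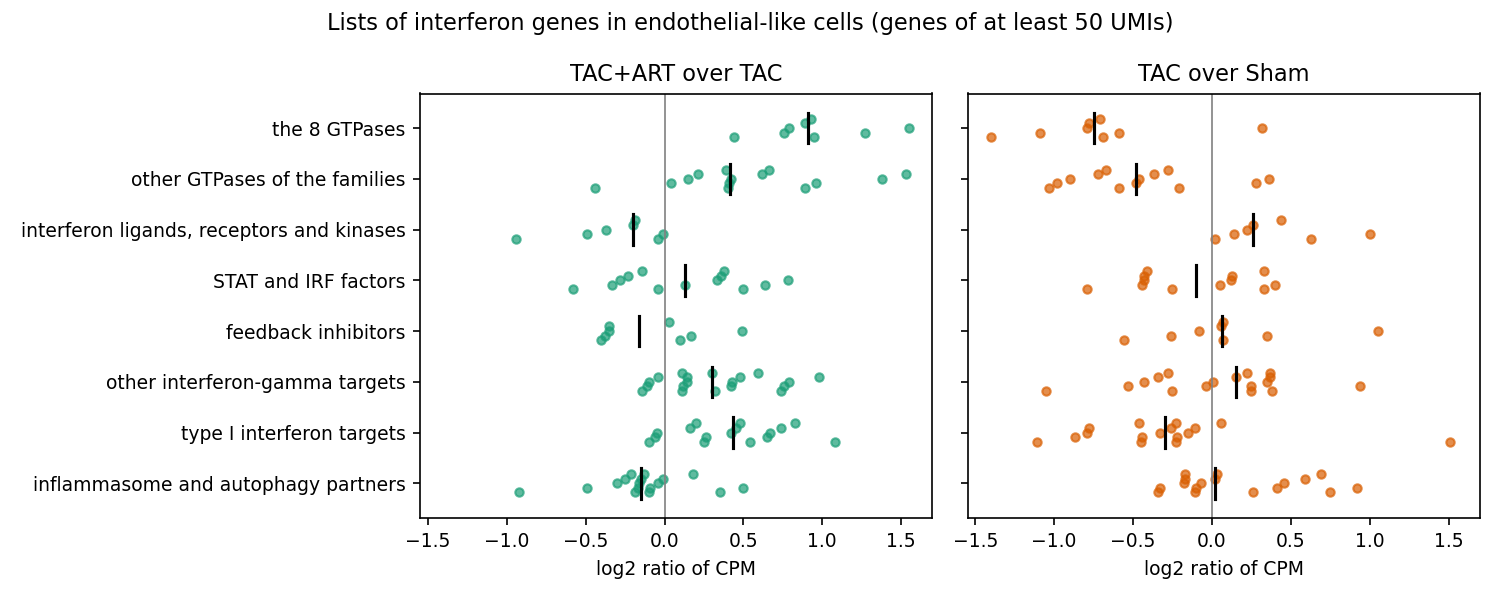
Log2 ratios of CPM (horizontal axis) in endothelial-like cells for the 8 GTPases and for 7 lists of interferon genes (vertical axis), for TAC+ART over TAC (left) and TAC over Sham (right), with 1 point per gene of at least 50 UMIs and a line at each list's median. The medians of the 8 GTPases are 0.91 and -0.75, and those of the ligands, receptors and kinases are -0.20 and 0.26.

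In the other large classes the lists resembled those of endothelial-like cells only in part. In macrophage-like cells 13.2% of all genes were lower and 12.1% higher for TAC over Sham. For TAC+ART over TAC 6.67% were higher and 6.53% lower, and nothing is read from list counts of 1 or 2 genes. In that class 7 of 9 other GTPases were lower and 1 higher in TAC than in Sham (median -0.65). For TAC+ART over TAC 10 of 14 were higher and 0 lower (median 0.71). Gbp9 and Gbp8 had the lowest ratios for TAC over Sham there, -1.52 and -1.41. Ifngr2 was again highest in TAC, with 109.9 CPM in TAC+ART, 179 CPM in TAC and 104 CPM in Sham. Of the 14 type I interferon targets 8 were lower and 2 higher in TAC than in Sham, while for TAC+ART over TAC 2 of 15 were higher and 1 lower. In fibroblast-like cells, 1 of 9 other GTPases was lower and 1 higher by 2-fold in TAC than in Sham (median -0.25). By that much 5.19% of all genes were lower and 7.86% higher. By 1.5-fold 3 of them were lower and 2 higher, where 1757 of 13473 genes were lower and 2285 higher. Gbp6, the lowest, had log2 ratios of -1.02 in TAC over Sham and 0.14 in TAC+ART over TAC, and Gbp8 had -0.97 and 1.19. In TAC+ART, 3 of 10 other GTPases were 1.5-fold higher than in TAC and 0 lower (median 0.22), where 8.36% of all genes were higher and 7.33% lower. Other interferon-gamma targets leaned the other way in that class, with 13 of 17 above 0 and 4 below 0 for TAC over Sham. Their median was 0.44, against 0.02 over all genes. At 1.5-fold 7 were higher and 1 lower, and at 2-fold 2 were higher and 1 lower, where the shares of all genes given above also leaned to higher. Among them B2m, the light chain of MHC class I, had 245 CPM in TAC and 118 CPM in Sham. In the same cells macrophage markers, all 10 detected, summed to 284 CPM in TAC and 127 CPM in Sham. Monocyte markers, all 6 detected, summed to 599 and 168 CPM, and pericyte markers, all 8 detected, to 320 and 329 CPM. Their part in these levels was not tested. In cardiomyocyte-like cells 10 of 12 of these targets were higher and 0 lower in TAC than in Sham (median 1.24), where 27.5% of all genes were higher and 18.3% lower, and the endothelial, fibroblast and macrophage markers given above were higher in TAC in those cells too. There 2 other GTPases had enough UMIs, 1 lower and 1 higher.

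Over the 21 pairs of class and library, the genes whose levels were most like the sum of the 8 GTPases were Gbp9 (Pearson r of log2 CPM 0.894), H2-Q6, an MHC class I gene (0.892), Abcc4, a transporter (0.879), Gbp8 (0.872), Ceacam1, an adhesion protein (0.867), Rbck1, a ubiquitin ligase subunit (0.859), Zdhhc18, a palmitoyltransferase (0.857), 9530082P21Rik (0.853), Clec9a, a receptor of dendritic cells (0.853), and B230217O12Rik (0.848). These were the highest of 13794 genes, and the points share classes, libraries and depth, so the values only describe. Between pairs of the 8 genes r ran from 0.294 for Igtp and Gbp7 to 0.906 for Gbp3 and Gbp5.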

How the data were processed

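For each of the 3 libraries the authors deposited a matrix of UMI counts, genes by barcodes, without normalization, and all values here start from these counts. Cell Ranger, Seurat and the mm10 build are named in the submitters' processing notes, while their versions, the gene annotation and the rule that limited barcodes are details the sources used here do not give. The 8 genes, the marker panels and the 7 gene lists were chosen with earlier results of these data known, and no test was run, since each group is 1 library.

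A barcode needed 500 UMIs, 300 detected genes and a mitochondrial share of no more than 10%, which excluded 0 barcodes of TAC+ART, 1 of TAC and 2 of Sham. Likely doublets were found in each library by a simulated-doublet score written for this work (2 simulated doublets per barcode, 2000 variable genes, 30 components), and the top 0.8% per 1000 barcodes was removed, 376, 440 and 112 barcodes in TAC+ART, TAC and Sham. Each cell was assigned to the class whose expression profile made its counts most likely, in 2 rounds started from marker panels. The model allowed for 15% of pooled RNA (a share of 0.15). At least 3 markers of the best class had to be detected, and it had to lead every unrelated class by at least 100-fold in likelihood. No lead was required between related classes, among them the endothelial, endocardial and lymphatic endothelial classes. Cells that met no class numbered 256, 476 and 127 in TAC+ART, TAC and Sham. Of the endothelial-like cells, 75, 98 and 23 lay near the limit of the gate against unrelated classes. Cluster 8, named endocardial, held 29, 21 and 6 endothelial-like cells of TAC+ART, TAC and Sham. Leiden clusters (resolution 1, seed 1, 3000 variable genes, 20 neighbours) were used for composition and as an alternative.

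The level of a gene is its UMIs in a class of a library over all UMIs of that class (CPM). Log2 ratios have 0.5 UMIs added to each sum. Intervals are 95% and exact: Poisson for sums, conditional binomial for ratios and Clopper-Pearson for shares. UMIs from shared droplets and free RNA are not independent of the preparation, so the intervals cover counting error only. A gene counted as higher or lower had a ratio of at least 1.5-fold and at least 50 UMIs in the pair of libraries, and a 2-fold count is also given for TAC over Sham in fibroblast-like cells. The upper count behind a 0 was 3 UMIs per library. Shares of cells with a UMI were taken after thinning each cell to 1000 UMIs. All 8 genes are named in each of the 7 classes. Genes of the lists are named from among the 2 highest and 2 lowest ratios of a list in 4 classes, though not all of these are printed, together with Irf1, Ifngr1, Ifngr2, Ifi47 and Gbp4. The genes most like the 8 are the 10 with the highest Pearson correlation of log2(CPM + 1), among genes with at least 300 UMIs. One gene of the fixed list is not reported here. Cd247, Skap1, Themis, Cd3d, Cd3e, Trac, Ncr1, B2m and single cells were singled out after their values were seen. Positions come from GENCODE M21 and promoter windows from RefSeq (GRCm38.p6). Computation used Python 3.11.15, numpy 2.4.6, scipy 1.17.1, scikit-learn 1.9.0, igraph 0.11.9, leidenalg 0.10.2 and matplotlib 3.10.9, with edgeR 4.0.16 only for TMM factors in an alternative scaling. The ratio and interval code was tested on simulated data. Alternatives changed the gate, the doublet step, the depth, the scaling, the weight of a cell and the thresholds, and 4 of them (without clusters of low depth, single clusters, without shared barcodes, without the richest cell) were added after seeing the data.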

Additional observations from a re-analysis of the deposited data

How the results depend on the processing

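The ratios were recomputed under 13 to 15 alternatives each. For endothelial-like cells the summed log2 ratio ran from -1.07 to -0.63 for TAC over Sham and from 0.92 to 1.57 for TAC+ART over TAC, with no change of sign. It ran from -0.89 to -0.65 and from 0.82 to 1.10 in macrophage-like cells, and from -0.67 to -0.46 and from 0.41 to 1.0 in endocardial-like cells. Values below moved by more than their counting interval. Of 1745 values recomputed in all, 1540 stayed within it, 186 moved and 19 changed sign. The cause was not tested for any of them.

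For endothelial-like cells, TAC over Sham was -0.88 with DESeq2-type size factors, -0.87 with edgeR TMM factors and -1.07 with thinned cells, and -1.04, -1.07 and -0.63 in clusters 0, 2 and 12. TAC+ART over TAC was 0.94, 1.57 and 0.92 in these clusters. TAC+ART over Sham was 0.21 with TMM factors, 0.03 with thinned cells, and -0.10, 0.50 and 0.28 in clusters 0, 2 and 12. For fibroblast-like cells, TAC over Sham was -0.45 with classes from clusters, -0.92 with thinned cells and -0.44 in cluster 9. TAC+ART over TAC was 0.87 with thinned cells, 0.12 in cluster 5 and 0.78 in cluster 9. TAC+ART over Sham was 0.17 with classes from clusters, -0.54 in cluster 5 and 0.34 in cluster 9. For macrophage-like cells, TAC over Sham was -0.65 with thinned cells, and in cluster 4 TAC+ART over TAC was 1.10 and TAC+ART over Sham 0.25. For endocardial-like cells, TAC+ART over TAC was 0.80 with classes from clusters and 0.41 with thinned cells, and TAC+ART over Sham was -0.05 with thinned cells. For pericyte-like cells, TAC+ART over TAC was 1.01 with thinned cells.

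Cardiomyocyte-like cells were the least stable. TAC over Sham was -0.74 with classes from clusters, 0.09 among cells of at most 8000 UMIs, -0.04 as a mean over cells, 0.22 with thinned cells, -0.04 without the cell richest in these genes in each library and -0.92 in cluster 10. TAC+ART over TAC was 0.38 among cells of at most 8000 UMIs. TAC+ART over Sham was -0.65, 0.47, 0.28, 0.23, 0.05 and -0.78 under the same 6 settings, and -0.56 without clusters of low depth.

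Single genes changed sign mostly in single clusters. In fibroblast-like cells of cluster 5, Iigp1 had 0.04 for TAC over Sham. Igtp had -0.85 for TAC+ART over TAC and -0.14 for TAC+ART over Sham there, and Gbp5 and Gbp7 had -0.57 and -0.44 for TAC+ART over TAC. The 8 genes together had 119 UMIs in TAC and 84 in Sham in these cells, so these values rest on few UMIs. Gbp5 had 0.30 for TAC+ART over Sham in cluster 9, and Igtp had -0.01 for TAC over Sham with thinned cells. In endothelial-like cells, Iigp1 had -0.07 and -0.22 for TAC+ART over Sham in clusters 0 and 12, and in cluster 12 Igtp had -0.27 for TAC+ART over TAC and Irgm2 had 0.05 for TAC over Sham. Shares of endothelial-like cells with a UMI of the 8 genes were 75.9%, 58.4% and 68.8% without thinning in TAC+ART, TAC and Sham. Over the 7 lists in endothelial-like cells, genes lower in TAC than in Sham numbered 19 with genes of at least 1 UMI and 3 at 2-fold, and genes higher in TAC+ART than in TAC numbered 3 at 2-fold.

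No paired analysis was possible because each group is 1 library and the labels carry no replicate numbers. Genes of under 50 UMIs in a pair of libraries are limited by depth, among them Igtp in endocardial-, lymphatic endothelial-, cardiomyocyte- and pericyte-like cells, and few barcodes above 10000 UMIs were present in any library.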
